A study of Rattus norvegicus and Mus musculus with 3 samples.

Results

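The metabotropic glutamate receptors described here are 6 genes, Grm2, Grm3, Grm4, Grm5, Grm7 and Grm8, found by symbol in every table, among 30438 genes listed for each rat and 34714 for the mouse. Hippocampal RNA was sequenced in 3 libraries, 1 per group. They are a Sham rat and a 2VO rat, both labelled wild type and 3 to 4 months old, and a mouse of 6 months, the wild-type member of the 3xTg-AD line, which models Alzheimer's disease where its human transgenes are present. The abbreviation 2VO usually stands for occlusion of a pair of vessels, in which both carotids are tied off so that less blood reaches the brain, and Sham for the operation alone. The labels give no strain, sex, time after surgery or pooling of animals. With 1 library per group no difference has a replicate check, no p-value is given, and every statement is about these libraries rather than the conditions.

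Metabotropic glutamate receptors are G protein-coupled receptors that act as dimers and sense glutamate through a large extracellular domain. Group I, represented here by Grm5, couples to Gq, phospholipase C and calcium release, and sits mostly at the edge of the postsynaptic density, where it takes part in long-term depression. Group II (Grm2 and Grm3) and group III (Grm4, Grm7 and Grm8) couple to Gi/o, lower cyclic AMP and restrain transmitter release from axons, and Grm3 and Grm5 are also used by astrocytes. In the hippocampus Grm2 is best known from dentate granule cells and their mossy fibres, and Grm7 from presynaptic active zones.

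The deposited values carry no stated unit, so they are called units. Nearly all values above 0 were distinct (22189 of 22338 in Sham), which whole counts divided by a single library factor would not give. Across 12366 mouse genes at 1 unit or more, the value had a Spearman correlation of -0.13 with the median transcript length, given as a description. Division by length is not stated, however, so an order of levels between genes is an order of deposited values. A plain ratio of the same gene between the rats does not depend on this. A ratio with 1 unit added to both values, and a cut at a mean of 1 unit, do depend on it.

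Grm4, which encodes the presynaptic group III receptor mGlu4, was the receptor gene furthest apart between the rats. It was 5.54 units in Sham, 2.68 in 2VO and 1.98 in the mouse. The Sham value was the high one of the 3, and the plain Sham value was 2.07 times the 2VO value. With 1 unit added to both values before the log, as in every ratio below, 2VO over Sham came to a log2 ratio of -0.83. Genes whose 2 rat values averaged 1 unit or more are called measured, and of these 13550 genes 47 had a lower ratio. Of these, 36 carried more than a model identifier. Among the 2710 measured genes with a mean within 1.5-fold of that of Grm4, 14 had a lower ratio, and the central 95% of the ratios ran from -0.43 to 0.56. In the RefSeq rat table no other gene's span overlaps Grm4 or Grm2. The span of Grm3 overlaps that of Elapor2, and those of Grm5, Grm7 and Grm8 also overlap other entries. Whether reads of such entries enter the receptor values was not tested. In bulk tissue, fewer cells of a type and less RNA per cell cannot be told apart.

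**Figure D1:**
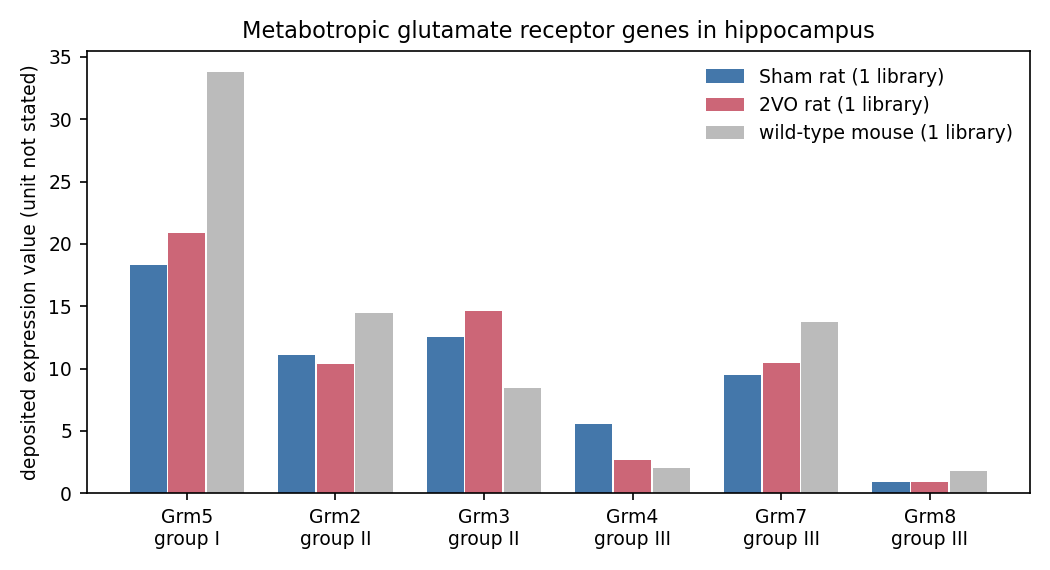
Bars give the deposited value (vertical axis, unit not stated) of each receptor gene in the Sham rat, the 2VO rat and the wild-type mouse, 1 library each and without error bars. Grm4 is 5.54 in Sham and 2.68 in 2VO, while the other genes differ between the rats by at most 1.17 times; Grm5 is the highest gene in all 3 libraries.

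Of the 5 measured members, 1 was at least 1.5-fold apart, and that was Grm4. Over all measured genes 0.967% were at least 1.5-fold lower in 2VO, 1.51% at least 1.5-fold higher and 2.48% apart in either direction. At 1.2-fold Grm4 was again the 1 member apart, against 19.4% of all measured genes. The other 4 measured members had log2 ratios between -0.09 and 0.21. Grm8, with a mean under 1 unit, was not counted among the measured members. Of the 5 members 3 were higher and 2 lower in 2VO, with a median log2 ratio of 0.13, beside 58.7% higher and a median of 0.04 over all measured genes.

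**Figure D2:**
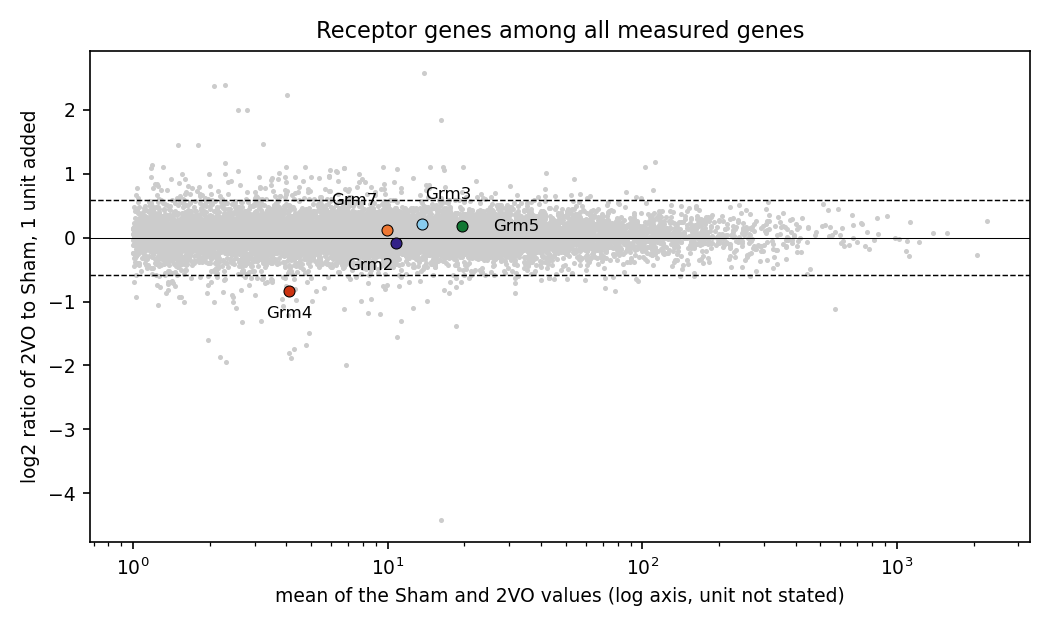
Each grey point is 1 of 13550 measured genes, with the mean of both rats on the horizontal axis (log scale) and the log2 ratio of 2VO to Sham, 1 unit added, on the vertical axis; coloured points are the 5 measured receptor genes and dashed lines mark 1.5-fold. Grm4 lies below the lower line at -0.83, and the other 4 lie between -0.09 and 0.21.

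Group I was represented by Grm5, which encodes mGlu5, the receptor bound by Homer scaffolds. It was 18.3 units in Sham, 20.9 in 2VO and 33.8 in the mouse. It was the highest of the 6 in each library, and the rats lay close together below the mouse. Its log2 ratio was 0.18, and 77.4% of measured genes had a lower ratio.

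The group II genes went in opposite directions between the rats, both by little. Grm2, which encodes mGlu2, was 11.1 units in Sham, 10.4 in 2VO and 14.5 in the mouse, with a log2 ratio of -0.09. Grm3, which encodes mGlu3, the receptor for which the peptide N-acetylaspartylglutamate (NAAG) is a proposed agonist, was 12.6 in Sham, 14.6 in 2VO and 8.47 in the mouse, with a log2 ratio of 0.21. The mouse was thus the highest library for Grm2 and the lowest for Grm3. The ratio of Grm2 to Grm3 was 0.885 in Sham, 0.710 in 2VO and 1.71 in the mouse, so that Grm3 was the larger of the pair in both rats and Grm2 in the mouse.

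In group III, Grm7 did not share the direction of Grm4, and Grm8 was too low and too close to level to be given one. Grm7, which encodes mGlu7, a receptor of low glutamate affinity, was 9.50 units in Sham, 10.5 in 2VO and 13.7 in the mouse, with a log2 ratio of 0.13. Grm8, which encodes mGlu8, was the lowest of the 6 in each library, at 0.902 in Sham, 0.931 in 2VO and 1.76 in the mouse. Its log2 ratio of 0.02 changed sign under 2 of the scalings tried. Grm7 and Grm8 together came to 10.4 units in Sham and 11.4 in 2VO. The ratio of Grm4 to Grm7 was 0.583 in Sham, 0.256 in 2VO and 0.145 in the mouse, an ordering that no scaling between libraries can alter. Within the group III sum, Grm4 made up 34.8% in Sham, 19.0% in 2VO and 11.4% in the mouse, and Grm7 made up 59.6%, 74.4% and 78.6%.

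Shares of the 6-gene sum, which also do not depend on the scaling between libraries, placed the 3 receptor groups side by side. The sum was 57.9 units in Sham, 60.0 in 2VO and 74.2 in the mouse. Group II held the largest share in both rats, at 40.9% in Sham and 41.8% in 2VO, and 30.9% in the mouse. Group I, as Grm5 alone, held 31.6% in Sham, 34.8% in 2VO and 45.6% in the mouse, where it was the largest on the deposited scale. On log2(value + 1) levels it was the smallest there, at 26.6% beside 37.4% for group II and 36.0% for group III. Group III held 27.5% in Sham, 23.5% in 2VO and 23.5% in the mouse. Grm4 alone was 9.56% of the sum in Sham, 4.46% in 2VO and 2.67% in the mouse. When Grm4 was left out of the sum, the share of Grm5 was 35.0% in Sham and 36.4% in 2VO, that of Grm3 24.0% and 25.6%, that of Grm2 21.2% and 18.1%, and that of Grm7 18.1% and 18.3%. Without Grm4, the share of each gene was within 3.1 percentage points between the rats. These shares sum values across genes and so rest on the unstated scaling between genes.

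**Figure D3:**
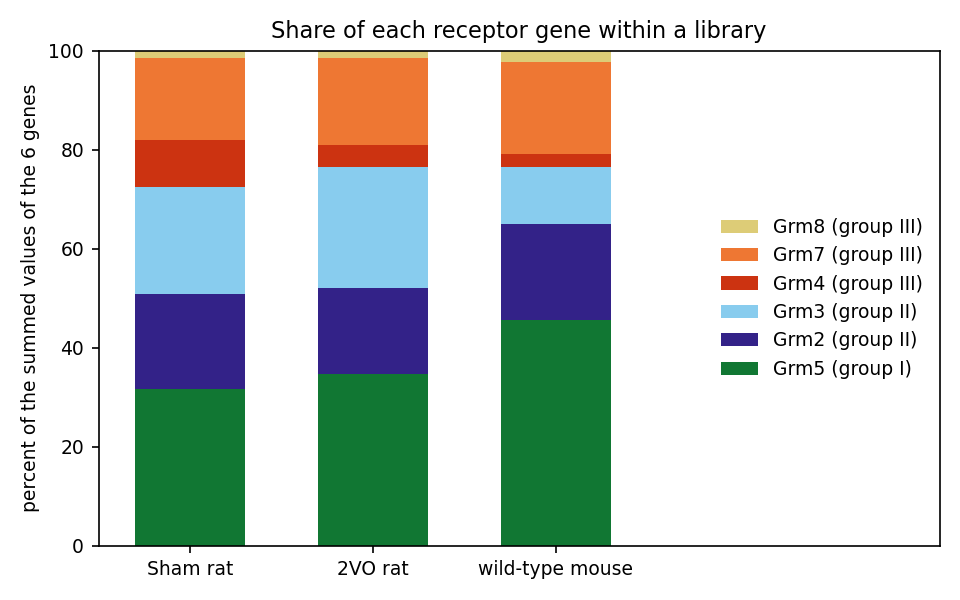
Stacked bars give each receptor gene's percent of the summed values of the 6 genes (vertical axis) in the Sham rat, the 2VO rat and the wild-type mouse, 1 library each. The Grm4 segment is 9.56% in Sham, 4.46% in 2VO and 2.67% in the mouse, and the Grm5 segment is 31.6%, 34.8% and 45.6%.

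The order of levels was nearly the same in both rats and differed in the mouse. In Sham it ran Grm5, Grm3, Grm2, Grm7, Grm4, Grm8, and in 2VO Grm7 and Grm2, at 10.5 and 10.4 units, exchanged places. In the mouse it ran Grm5, Grm2, Grm7, Grm3, Grm4, Grm8. With no replicates, no spread is known that could separate neighbours such as Grm2 and Grm7 in 2VO or Grm4 and Grm8 in the mouse, at 1.98 and 1.76 units.

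The mouse and rat tables were normalized separately, so levels were also set side by side as rank percentiles. Among all genes above 0 in each library, Grm5 stood at 82.5 in Sham, 83.8 in 2VO and 92.8 in the mouse. Grm4 stood at 60.8 in Sham, 48.8 in 2VO and 52.9 in the mouse. The place of the mouse depended on the genes ranked: among symbols listed by both species Grm4 stood at 47.5 in Sham, 33.6 in 2VO and 31.7 in the mouse, and among genes with at least 1 unit at 35.0, 17.2 and 11.5, below both rats in each case. The Sham rat was the highest under all 3 rankings. Over 11436 symbols that both species list and whose mouse and Sham values averaged 1 unit or more, the rank of Grm4 was 20.3 percentile points lower in the mouse than in Sham. That of Grm5 was 16.9 points higher, that of Grm7 15.2 higher, that of Grm2 11.6 higher and that of Grm3 10.5 lower. Gaps at least as large as that of Grm4 were held by 14.5% of those genes, and the central 95% of the gaps ran from -32.3 to 30.6, so each receptor gene lay inside the usual scatter between these tables. Species, age, genome build and the Sham label differ together between the mouse and the Sham rat and cannot be told apart.

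Genes that act with the receptors were taken from 7 lists holding 105 genes, of which 101 were measured. In 2VO 55 of them were higher and 46 lower, beside 58.7% higher over all measured genes. Their median log2 ratio was 0.01, beside 0.04 over all measured genes. At least 1.5-fold higher was 1 gene, Rgs4, and 0 were at least 1.5-fold lower, a share of 0.990% beside 2.48% of all measured genes.

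Among scaffolds and binding partners 7 genes were higher in 2VO and 9 lower (median -0.06). Homer1, which tethers mGlu5 to the postsynaptic density, was 14.3 units in Sham, 14.0 in 2VO and 15.9 in the mouse. Elfn1, an adhesion protein that binds group III receptors across the synapse, was 6.22 in Sham, 9.16 in 2VO and 4.70 in the mouse. Its log2 ratio of 0.49 was the highest of the list, and its relative Elfn2 went the other way, at 38.3, 34.3 and 27.9. Frmpd4, a scaffold that links mGlu5 and Homer, was 11.5 in Sham and 14.3 in 2VO. Shank2, at 16.8 and 14.1, and Cyth2, at 33.1 and 29.2, were the lowest by ratio. None of the 16 passed 1.5-fold.

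On the Gq side, used by mGlu5, 10 genes were higher and 6 lower (median 0.04). Gnaq, the Gq alpha subunit, was 39.8 units in Sham and 42.2 in 2VO. Plcb4, a phospholipase gene, was 1.85 and 2.43, with a log2 ratio of 0.26. Dgkz, a kinase that removes diacylglycerol, was 284 and 222, the lowest at -0.35, followed by Prkcb at 88.8 and 74.8. The list had members on both sides and none past 1.5-fold.

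On the Gi/o side, used by groups II and III, 13 genes were higher and 11 lower (median 0.01). Gnao1, the abundant Go alpha subunit of brain, was 110 units in Sham and 137 in 2VO. Gnai1, another inhibitory alpha subunit, was 43.0 and 58.0, and Gng3, a gamma subunit, was 50.3 and 67.6, with log2 ratios of 0.42 for both. Adcy1, the calcium-stimulated adenylyl cyclase, was 190 in Sham and 129 in 2VO, the lowest of the list at -0.55. Gnb5, the beta subunit that pairs with a family of RGS proteins, was 49.1 and 35.2. The alpha subunits did not all lie on one side, since Gnai2 was 97.7 and 94.0. None of the 24 passed 1.5-fold.

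The desensitisation list of receptor kinases, arrestins and RGS proteins had 7 genes higher and 5 lower (median 0.03). Rgs4, which shortens Gq and Gi/o signals, was 10.2 units in Sham, 23.0 in 2VO and 41.0 in the mouse, a log2 ratio of 1.10. Rgs14, enriched in CA2 neurons, was 55.0 in Sham and 36.7 in 2VO, at -0.57. Rgs8 was 17.5 and 21.1, and the receptor kinase gene Grk4 was 1.37 and 1.08. Rgs4 and Rgs14 stood at the ends of the list, with the other members between -0.19 and 0.26.

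**Figure D4:**
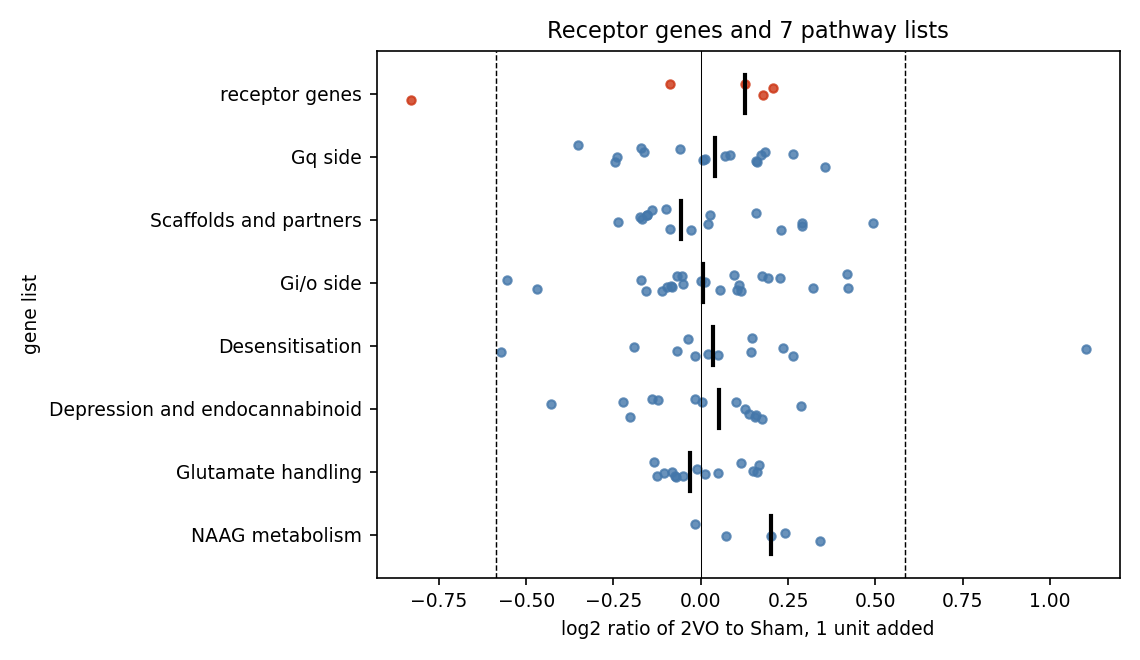
Points are the log2 ratios of 2VO to Sham (horizontal axis, 1 unit added) of the measured genes of each list (rows), 1 library per group; thick bars are list medians and dashed lines 1.5-fold. Grm4 among the receptors and Rgs4 among the desensitisation genes are the points outside the lines, and the list medians lie between -0.06 and 0.20.

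Genes of long-term depression and endocannabinoid signalling, which follow mGlu5 activation, split into 8 higher and 6 lower (median 0.05). Eef2k, the kinase of elongation factor 2, was 8.57 units in Sham and 10.7 in 2VO, and Cnr1, the cannabinoid receptor gene, was 32.6 and 36.9. Dagla, which makes the endocannabinoid 2-arachidonoylglycerol, was 65.3 and 48.3, the lowest at -0.43, followed by the phosphatase gene Ptpn5 at 57.9 and 49.5. None passed 1.5-fold.

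Glutamate release, uptake and recycling genes differed least, 6 of them higher and 8 lower. Their median was -0.03 and their ratios lay between -0.13 and 0.17. The vesicular transporter gene Slc17a7 was 715 units in Sham and 682 in 2VO. The astrocytic transporter gene Slc1a2 was 188 in Sham and 187 in 2VO, and Slc1a3 was 145 and 147. Slc17a8, at 1.47 and 1.25, and Slc1a1, at 42.7 and 39.0, were lowest, and Glud1, at 93.9 and 105, and Slc38a1, at 25.5 and 28.6, were highest.

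The NAAG list had the highest median, 0.20, from 5 measured genes, 4 of them higher in 2VO. Rimklb, a NAAG synthetase, was 7.90 units in Sham and 10.3 in 2VO, and Folh1, the peptidase that cleaves NAAG, was 4.80 and 5.86. The other synthetase gene, Rimkla, was 11.5 and 12.1, and Nat8l, which makes N-acetylaspartate, was 110 and 109. None passed 1.5-fold. Both synthetase genes and the peptidase gene Folh1 were higher in 2VO, while Nat8l was nearly level, at a log2 ratio of -0.02.

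Cell type markers were read beside the receptor genes, since each receptor is used by particular cells. Over all measured genes 58.7% were higher in 2VO, the share to set beside each marker count below. Of 14 markers of hippocampal granule and pyramidal cells 10 were measured, among them Prox1 at 17.2 units in Sham and 14.8 in 2VO, and Nrgn at 823 and 802. The granule marker Tdo2 and the pyramidal markers Iyd and Spink8 were at or near 0 in both rats, at no more than 0.0741 units. Of the measured dentate granule cell markers 1 of 4 was higher in 2VO, Calb1 at a log2 ratio of 0.44. Stxbp6 was at -0.41, Prox1 at -0.21 and C1ql2 at -0.01. Over all 6 listed granule genes the summed level was 174 in Sham and 171 in 2VO, so the near-equal sums hide differences in both directions. Pyramidal markers were 2 of 6 higher, with sums of 1111 and 1018. They did not move as one: Wfs1, at a log2 ratio of -0.60, was more than 1.5-fold lower, Pou3f1 was at -0.48 and Bok at -0.37, while Grik4 was at 0.33. Microglial markers were 1 of 7 higher, with sums of 152 and 109. The 6 lower ones ran from Aif1, at a log2 ratio of -0.78, to Tmem119 at -0.20, while P2ry12 was more than 1.5-fold higher, at 0.60. Astrocyte markers were 3 of 8 higher, with sums of 1626 and 1273, a gap that rested on Gfap at 778 and 360, while Grm3 and Grm5 were slightly higher in 2VO. Cortical markers were 5 of 6 higher, with sums of 40.9 and 63.7, oligodendrocyte markers 7 of 7, with sums of 3471 and 4360, and choroid plexus markers 2 of 3 measured, with sums of 3.02 and 8.27. The choroid plexus gap rested mainly on Ttr, at a log2 ratio of 2.00. Folr1 was also higher, at 0.50, and so was Clic6, below the measured level at 0.0773 and 0.426 units. Kcne2 was at -0.08 and Kl near 0. Interneuron markers were 5 of 8 higher, with sums of 255 and 258. The part of these cell types in the receptor values was not tested. Grm4 is most abundant in cerebellar granule cells, and the cerebellar marker Gabra6 was near 0, at 0.0255 in Sham and 0.0626 in 2VO, as was Pcp2, listed at 0 for the Sham rat and 0.00517 for the 2VO rat. The other 3 cerebellar markers were not near 0, with Cbln1 at 2.08 and 2.19, Zic1 at 1.98 and 1.92 and Car8 at 1.92 and 2.096. All 5 summed to 6.01 and 6.28, and the 5 thalamic markers to 5.60 and 5.86.

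The genes most like each receptor gene over the 3 libraries were sought among 11457 shared symbols, by Euclidean distance between log2(value + 1) levels. For Grm4 they were Zc3hav1, at 5.29 units in Sham, 2.72 in 2VO and 1.95 in the mouse (distance 0.06), and Bst2, at 5.46, 3.14 and 2.05 (distance 0.17). The second of these lay further away than any neighbour of the other receptor genes, whose nearest 2 genes lay at distances of 0.02 to 0.09. These were Adam15 and Fibcd1 for Grm5, Pde8b and Farp1 for Grm2, Clk2 and Sirt6 for Grm3, Pcdh10 and Foxred1 for Grm7, and Zkscan4 and Srpk3 for Grm8. Over 3 libraries such a likeness describes 3 levels and no more.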

How the data were processed

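Total RNA of hippocampus went into TruSeq v2 libraries, per the labels' protocols, a kit that does not mark strand. Per the submitters' processing notes, DESeq2, HISAT2 2.1.0 and fastp 0.21.0 were used with the rat build mRatBN7.2 and the mouse build GRCm39, without stated roles. The quantifier, the annotation and the filters were not given in the sources used here. The authors' values are a normalized signal per gene, 1 column per deposited table, in an unstated unit. Depth is therefore unknown, and no counting interval or floor is given. Libraries were compared as deposited. Log2 ratios used 1 added unit, and measured genes had a mean of at least 1 unit in the rats. The 1.5-fold mark describes 2 libraries and is no test. All 6 members were named, and from each list the 2 highest and 2 lowest ratios plus 8 preset genes; a gene that this rule takes is not reported here. Markers and examples beyond that rule were chosen after their values were seen. The members and lists were chosen with earlier results of these data known. Listed genes with 2 symbols in use were counted once. Gene overlaps came from a RefSeq table of the rat assembly GRCr8 and transcript lengths from GENCODE M21, another mouse build, so no coordinates are given. The ratio calculation was tested on data simulated from these rat libraries (13550 genes): 92 of 92 genes made 3-fold lower passed 1.5-fold. The noise level was set rather than taken from the data, and 0 of 13307 unchanged genes passed, beside 2.48% of measured genes in the data. The simulation thus checks the calculation and not how often an unchanged gene would pass. The software was Python 3.11.15 with numpy 2.4.6, pandas 2.3.3, statsmodels 0.14.6, scipy 1.17.1 and matplotlib 3.10.9.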

Additional observations from a re-analysis of the deposited data

How the results depend on the processing

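The number of receptor genes at least 1.5-fold apart between the rats was 1 as reported and was 0 with 4 units added before the log, 0 at a 2-fold mark and 0 with a minimum mean of 5 units, which leaves Grm4 out. It stayed at 1 under upper-quartile scaling, median-of-ratios scaling, scaling to equal sums without the 50 most abundant genes, 0.25 added units, no filter and a 1.2-fold mark. The log2 ratio of Grm4 was below 0 in all 6 settings, from -0.98 with 0.25 units added to -0.52 with 4. Its sign is no check of most of them. Units added to both values cannot change it, and the scalings multiplied 2VO by 0.962 to 0.974, which lowers the ratio. Of 29 values of the other 5 genes, 0 reached 1.5-fold and 2 changed sign, both for Grm8 under the first 2 scalings. Of 49 medians of the pathway lists, 10 changed sign and 0 moved by more than 0.1, so no direction is given for a list. Group shares and rank percentiles moved with the genes or the scale they were taken over: on log2 values group III held 37.7% in Sham, 34.7% in 2VO and 36.0% in the mouse. Without Grm5 it held 40.2%, 36.0% and 43.2%, so the mouse then lay above Sham. The rank of Grm4 in the mouse lay between the rats among all genes above 0 and below both under the other rankings. No paired analysis was possible because each group holds 1 library, and for the same reason no library could be left out. Unknown depth limits the low genes most, Grm8 first.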
